A study of Equus caballus with 2 samples.

Results

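The transcripts of 44 genes that build, sulfate and trim glycosaminoglycan chains were followed in equine endometrial fibroblasts with and without transforming growth factor beta 1 (TGF-β1). The genes were chosen by symbol. Of the 44 symbols, 43 were found among the 21426 genes of the files, each on a single row, and *B3GALT6*, a galactosyltransferase of the linker, was not found. The cells were fibroblasts of 4 mares with healthy or mildly fibrotic endometria, passaged on collagen-coated culture flasks. At passage 3 they were seeded on collagen-coated hydrogels, and they were held in serum-free medium with BSA during treatment. Control cells were left unsupplemented and treated cells were given 10 ng/ml human recombinant TGF-β1, both for 24 h. Cells of the 4 mares were pooled before loading, so each group was 1 droplet library, and this passaged monoculture lacks the glandular epithelium that these cells surround in the endometrium. The mares of a library were not separated here, so each group was 1 sample and no test between the groups was made. Treatment and library preparation cannot be told apart, and every difference below describes these 2 libraries.

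Glycosaminoglycans are long sulfated sugar chains carried by proteoglycans in the matrix and on the cell surface. A short linker that starts with xylose is built on a serine of the core protein, and the next sugar decides whether a chondroitin or a heparan sulfate chain is grown on it. Epimerases turn part of chondroitin sulfate into dermatan sulfate, and sulfotransferases of the Golgi place sulfate at defined positions, which sets the growth factors and matrix proteins that a chain can bind. In fibroblasts such chains take part in collagen assembly and in holding growth factors, TGF-β among them.

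Cells with at least 20000 unique molecular identifiers (UMIs, 1 per captured transcript), at least 3500 genes and under 4% mitochondrial UMIs were kept, which left 3865 control and 4513 TGF-β1 cells with 210497250 and 219731144 UMIs. UMIs were summed per library and scaled to counts per 1000000 UMIs (CPM). Differences are log2 ratios of TGF-β1 over control, with the exact 95% binomial interval of the UMI counts, which covers counting error only. The kept control cells were deeper, with a median of 50313 UMIs against 43142, and the libraries shared 2 kept cell barcodes. The fibroblast markers *VIM*, *COL1A1* and *COL1A2* were found in every kept cell after each was thinned at random to 20000 UMIs. Of the 8 fibroblast markers, 4 were higher and 4 lower after TGF-β1 (median log2 ratio -0.34), and *PDGFRA* (-1.60) and *THY1* (-1.30) were more than 2-fold lower. Defining markers of epithelium (*EPCAM*, *CDH1*), endothelium (*PECAM1*, *CDH5*, *TIE1*) and leukocytes (*PTPRC*) had at most 9 UMIs per library. Other endothelial markers had more, *VWF* with 99 UMIs in the control and 45 after TGF-β1, *KDR* with 54 and 35, and *CLDN5* with 117 and 213. Some genes of these lists were abundant. The summed epithelial list went from 134 to 12.3 CPM, nearly all of it *KRT8* and *KRT7*, the endothelial list from 13.3 to 24.0 CPM, nearly all of it *ERG*, and the immune list from 56.7 to 52.9 CPM, nearly all of it *CD68* and *CD14*. The mural list went from 748 to 659 CPM, most of it *DES* (646 and 569 CPM). Its members *DES* (-0.18), *MYH11* (-0.76) and *MCAM* (-1.72) were lower. *RGS5* was higher (51.7 and 61.1 CPM, 0.24), and *CSPG4* did not differ detectably (0.05, -0.22 to 0.32). The cycling list went from 48.3 to 28.6 CPM. The part of these shifts in the values below was not tested. All 15 genes of a list known to respond to TGF-β were higher in the TGF-β1 library, for example the feedback inhibitor *SMAD7* (29.5 to 61.0 CPM, log2 ratio 1.05) and *PMEPA1* (29.0 to 127 CPM, 2.13).

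Most of the chain-building genes were higher in the TGF-β1 library. A level of 1 CPM or more, averaged across both libraries, was reached by 39 of the 43 genes, of which 29 were higher and 10 lower, with a median log2 ratio of 0.37. Over all 12116 genes at that level, 5897 were higher and 6219 lower, with a median of -0.01. More than 2-fold higher were *CHST7*, *EXT1* and *SULF2*, 3 of 39 genes against 3.45% of all genes. More than 2-fold lower were *FAM20A* and *HS6ST2*, 2 of 39 genes against 3.46% of all genes. The 5 genes were 12.8% of the 39, where 6.91% of all genes passed 2-fold in either direction. Of the 26 genes that averaged 10 CPM or more, 2 were more than 2-fold higher, against 2.30% of all genes at that level, and 0 were lower, against 2.13%. At a limit of 1.5-fold, 11 genes were higher and 2 were lower, which is 33.3% of the 39 genes against 17.0% of all genes (7.64% higher and 9.36% lower). Nearest to the 2-fold limit from outside were *HS6ST2* (log2 ratio -1.09) and *SULF2* (1.10), and from inside *SULF1* and *CHSY1* (both 0.87). In cells of 40000 to 60000 UMIs alone, *SULF1*, *CHSY1* and *XYLT1* passed it as well, which made 6 of 39 genes higher, against 4.31% of all genes in those cells. Of the 39 genes, only *EXTL2* and *CHST15* had a counting interval that held 0, as did 2221 of all 12116 genes at 1 CPM or more. The 43 genes together had 1541 CPM in the control and 2441 CPM in the TGF-β1 library, and *EXT1* made up 46.7% of this gain in CPM. Without *EXT1* the sum went from 1304 to 1785 CPM (log2 ratio 0.45, 0.45 to 0.46).

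**Figure D1:**
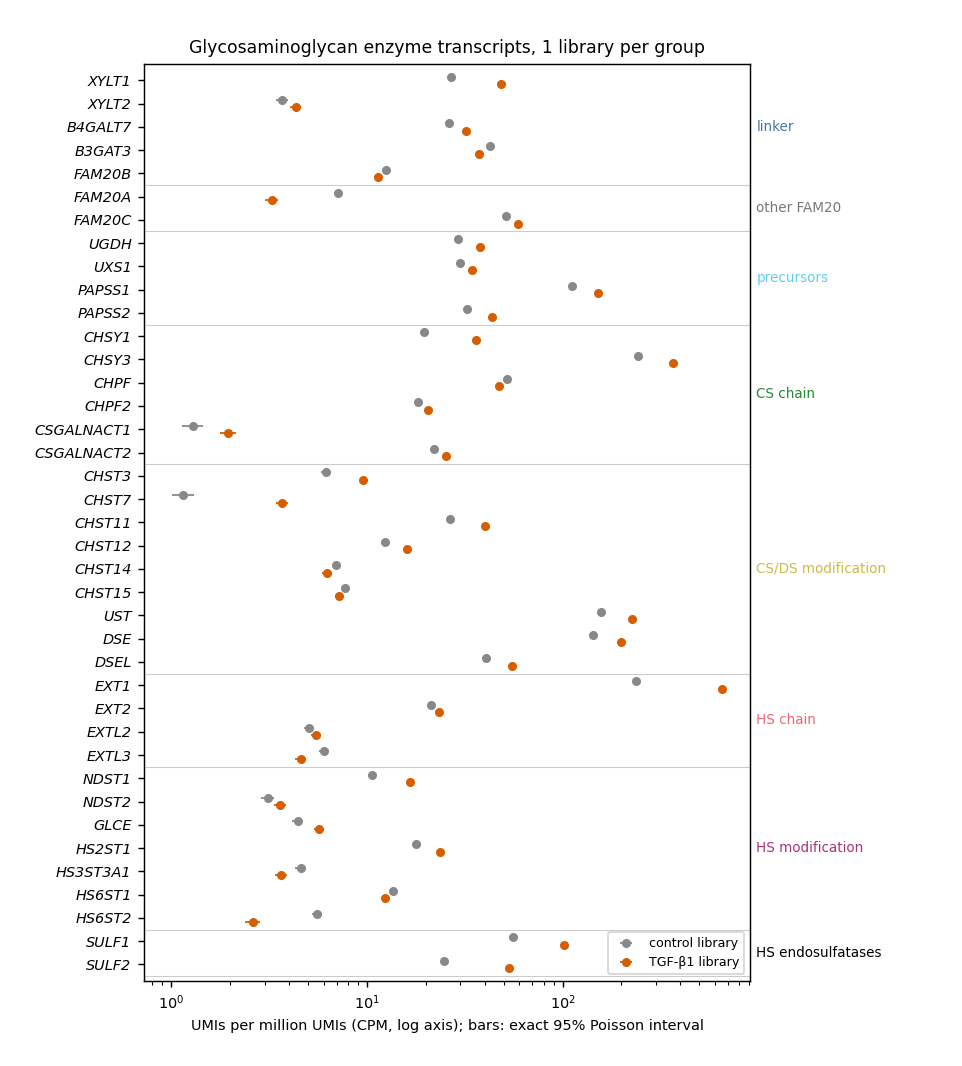
Level of each of the 39 genes that averaged 1 CPM or more, on a log axis of CPM, for the control library (grey) and the TGF-β1 library (orange); bars are exact 95% Poisson intervals of the counts. Most orange points lie to the right of the grey ones, farthest for *EXT1* (236 and 656 CPM) and *CHST7* (1.14 and 3.69 CPM), while *FAM20A* and *HS6ST2* lie to the left.

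Levels are counts of tags primed on poly(A). Whether reads in introns were counted is not stated, and a dependence on gene length was not tested. Levels also depend on how well the end of each gene is annotated in the horse, so levels of different genes were not ranked. Shares of cells with a UMI are given after thinning to 20000 UMIs. The culture held no cell type that should lack these genes, so the share that free RNA gives was not measured, and for genes near 1 CPM the shares describe detection only.

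The linker is started by the xylosyltransferases. *XYLT1* (ENSECAG00000006315), which adds the first xylose, had 5635 UMIs (26.8 CPM) in the control and 10588 UMIs (48.2 CPM) after TGF-β1, for a log2 ratio of 0.85 (0.80 to 0.89). UMIs of *XYLT1* were found in 32.4% of control cells against 50.4% of treated cells after thinning, and in 55.8% and 71.0% before it. Its paralogue *XYLT2* stood at 3.69 and 4.31 CPM, a log2 ratio of 0.23 (0.09 to 0.36). Of the bands of cell depth described below, only that from 40000 UMIs had an interval above 0 for *XYLT2* (0.33, 0.12 to 0.54). Over the clusters described below its ratio ranged from -0.72 to 0.81. The later linker steps moved less than *XYLT1* and not in the same direction. *B4GALT7*, which adds the first galactose, had 26.2 and 31.9 CPM (0.29, 0.24 to 0.34). *B3GAT3*, which closes the linker with glucuronic acid, had 42.4 and 37.6 CPM (-0.17, -0.22 to -0.13). *FAM20B*, the kinase that phosphorylates the linker xylose, had 12.5 and 11.3 CPM (-0.14, -0.22 to -0.06), with intervals that held 0 in every band of cell depth. The median over these 5 linker genes was 0.23, which is the value of *XYLT2*.

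The other kinases of the FAM20 family act on secreted proteins rather than on the linker. *FAM20C*, the Golgi kinase of secreted phosphoproteins, stood at 51.6 and 58.8 CPM (0.19, 0.15 to 0.23). *FAM20A* (ENSECAG00000023657), a pseudokinase that activates FAM20C, had 1499 UMIs (7.12 CPM) in the control and 716 UMIs (3.26 CPM) after TGF-β1, for a log2 ratio of -1.13 (-1.26 to -0.998) or 2.19-fold lower. Its UMIs were seen in 11.7% (10.7% to 12.8%) of control cells against 5.87% (5.20% to 6.60%) of treated cells after thinning, and in 24.4% and 12.8% before it.

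All 4 enzymes that supply the building blocks were modestly higher in the TGF-β1 library. *PAPSS1* and *PAPSS2* make PAPS, the donor of every sulfate group, and had 112 and 151 CPM (0.44, 0.41 to 0.46) and 32.4 and 43.7 CPM (0.43, 0.39 to 0.48), respectively. *UGDH*, which oxidises UDP-glucose to UDP-glucuronic acid, had 29.1 and 37.8 CPM (0.37, 0.33 to 0.42). *UXS1*, which turns UDP-glucuronic acid into the UDP-xylose of the linker, had 29.96 and 34.4 CPM (0.20, 0.15 to 0.25). Their median was 0.40, and none passed 1.5-fold.

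The chondroitin chain is elongated by synthases that need partner proteins. *CHSY1* (ENSECAG00000010914), a chondroitin synthase, had 4138 UMIs (19.7 CPM) in the control and 7922 UMIs (36.1 CPM) after TGF-β1, for a log2 ratio of 0.87 (0.82 to 0.93). *CHSY3* (ENSECAG00000001407), another synthase, had 244 and 368 CPM (0.59, 0.58 to 0.61) and was found in 83.7% of control cells against 94.1% of treated cells after thinning (93.5% and 97.5% before). The polymerizing factors behaved otherwise. *CHPF* had 51.9 and 47.2 CPM (-0.14, -0.18 to -0.10), and *CHPF2* had 18.3 and 20.5 CPM (0.16, 0.10 to 0.23). Of the enzymes that start the chondroitin chain with N-acetylgalactosamine, *CSGALNACT2* had 21.96 and 25.4 CPM (0.21, 0.15 to 0.26). *CSGALNACT1* (ENSECAG00000017912) was scarce, with 270 UMIs in the control and 429 in the TGF-β1 library (0.61, 0.38 to 0.83). It was within 1.5-fold in the shallowest cells (0.23, -0.37 to 0.87), in the deepest (0.24, -0.26 to 0.75) and with equal cluster shares (0.53). *CHSY3* passed 1.5-fold only just, and in cells from 60000 and from 80000 UMIs it was within that limit (0.56 and 0.38). The median over the 6 genes was 0.40.

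Among the enzymes that modify chondroitin and dermatan sulfate, 7 of 9 were higher and only *CHST7* passed 2-fold. *CHST7* (ENSECAG00000029885), which places sulfate on carbon 6 of N-acetylgalactosamine, had 241 UMIs (1.14 CPM) in the control and 810 UMIs (3.69 CPM) after TGF-β1, for a log2 ratio of 1.69 (1.48 to 1.90) or 3.22-fold. It had the highest ratio of the 39 genes, at percentile 98.9 of all genes tested, and was found in 2.17% (1.74% to 2.68%) of control cells against 7.20% (6.46% to 7.99%) of treated cells after thinning. Before thinning these shares were 5.51% and 14.2%. *CHST3* (ENSECAG00000008012), which has the same activity, had 1293 UMIs (6.14 CPM) and 2101 UMIs (9.56 CPM), a log2 ratio of 0.64 (0.54 to 0.74). In cells of 20000 to 40000 UMIs *CHST3* was within 1.5-fold (0.53). Summed, the chondroitin 6-O-sulfotransferases went from 7.29 to 13.2 CPM (0.86, 0.77 to 0.95).

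The 4-O-sulfotransferases *CHST11*, *CHST12* and *CHST13* together went from 39.0 to 56.2 CPM (0.53, 0.49 to 0.57). Of these, *CHST11* (ENSECAG00000019904) had 26.6 and 40.0 CPM (0.59, 0.54 to 0.64) and *CHST12* had 12.4 and 16.1 CPM (0.38, 0.31 to 0.45). *CHST11* passed 1.5-fold only just. It was within that limit in cells from 60000 and from 80000 UMIs (0.39 and 0.47) and with cycling cells left out (0.581). *CHST13* had 5 UMIs in each library and gives no usable ratio. *CHST14*, which sulfates carbon 4 in dermatan sulfate, had 6.95 and 6.22 CPM (-0.16, -0.27 to -0.05). Of the bands of cell depth, only that from 60000 UMIs had an interval below 0 (-0.31, -0.57 to -0.05). In cells of at least 80000 UMIs the ratio of *CHST14* was 0.02 (-0.23 to 0.27). The epimerases that make dermatan sulfate were both higher. *DSE* had 142 and 200 CPM (0.49, 0.47 to 0.51) and *DSEL* 40.4 and 55.4 CPM (0.45, 0.41 to 0.49). *UST*, which sulfates carbon 2 of the uronic acid, had 157 and 227 CPM (0.53, 0.51 to 0.55). *CHST15*, which adds a further sulfate to an already sulfated N-acetylgalactosamine, had 7.71 and 7.20 CPM (-0.10, -0.20 to 0.00), and no difference was detectable at this depth. The median over the 9 genes at 1 CPM or more was 0.49.

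The heparan sulfate chain is polymerised by a complex of EXT1 and EXT2, and only the transcript of the former passed 2-fold. *EXT1* (ENSECAG00000023112) had 49746 UMIs (236 CPM) in the control and 144193 UMIs (656 CPM) after TGF-β1, for a log2 ratio of 1.47 (1.46 to 1.49) or 2.78-fold. *EXT2* had 21.2 and 23.4 CPM (0.14, 0.08 to 0.20). *EXT1* was found in 91.5% of control cells against 98.7% of treated cells after thinning (98.2% and 99.6% before), shares too near 100% to show a difference of this size. *EXTL3*, which starts the heparan sulfate chain on the linker, had 6.03 and 4.59 CPM (-0.40, -0.52 to -0.27). *EXTL2*, a related transferase, had 5.07 and 5.47 CPM (0.11, -0.01 to 0.23), a difference not detectable at this depth. *EXTL1* had 5 and 18 UMIs. The median of the 4 genes at 1 CPM or more was 0.12, close to *EXT2* and *EXTL2* and far from *EXT1* and *EXTL3*, and it was 0.81 for the 2 genes of at least 10 CPM.

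**Figure D2:**
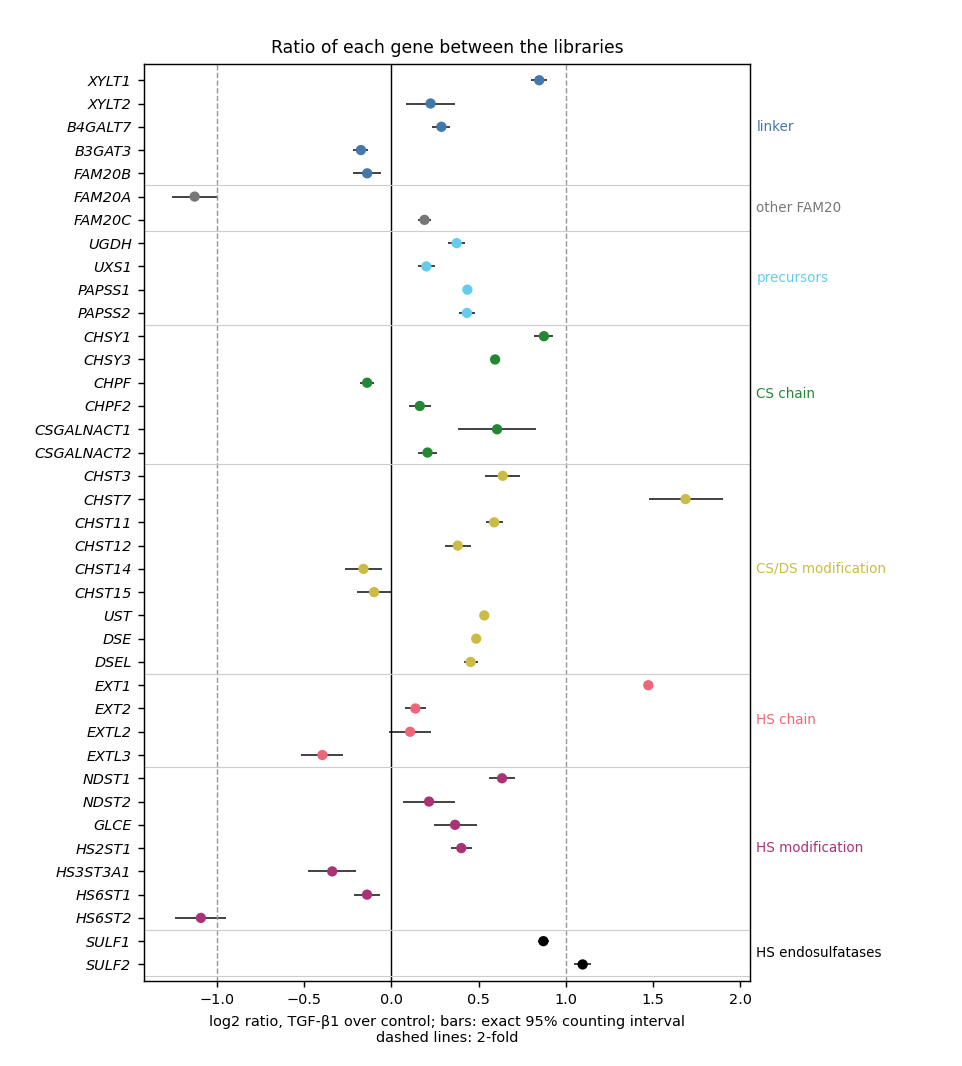
Log2 ratio of TGF-β1 over control for each of the 39 genes, coloured by step of the pathway, with the exact 95% counting interval as a bar and dashed lines at 2-fold. *CHST7*, *EXT1* and *SULF2* lie to the right of the upper line, *FAM20A* and *HS6ST2* to the left of the lower line, and the 4 precursor genes lie between 0.20 and 0.44.

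The enzymes that sulfate heparan sulfate were divided. *NDST1* (ENSECAG00000017361), which replaces acetyl groups by sulfate and so opens the chain to the later enzymes, had 2241 UMIs (10.6 CPM) in the control and 3632 UMIs (16.5 CPM) after TGF-β1, for a log2 ratio of 0.63 (0.56 to 0.71). In cells from 60000 and from 80000 UMIs *NDST1* was within 1.5-fold (0.54 and 0.56). *NDST2* had 3.11 and 3.61 CPM (0.22, 0.06 to 0.37), and *NDST3* had 88 and 166 UMIs. *GLCE*, the epimerase of glucuronic acid, had 4.42 and 5.70 CPM (0.37, 0.24 to 0.49), and *HS2ST1*, the 2-O-sulfotransferase, had 17.9 and 23.6 CPM (0.40, 0.34 to 0.46). Over all cells these early steps were higher, but in bands of cell depth the interval held 0 for *NDST2* in 2 of 4 and for *GLCE* in 3 of 4. *HS3ST3A1*, a 3-O-sulfotransferase, was lower at 4.59 and 3.63 CPM (-0.34, -0.48 to -0.20) over all cells, but no difference was detectable in the deepest cells, of at least 80000 UMIs (0.19, -0.18 to 0.56). *HS3ST1*, which makes sites for antithrombin, had only 90 and 187 UMIs. The median over the 7 genes at 1 CPM or more was 0.22.

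Sulfate on carbon 6 of heparan sulfate is added by the HS6ST enzymes in the Golgi and removed outside the cell by the endosulfatases SULF1 and SULF2. *HS6ST2* was lower and both endosulfatases were higher after TGF-β1. *HS6ST2* (ENSECAG00000024375) had 1166 UMIs (5.54 CPM) in the control and 571 UMIs (2.60 CPM) after TGF-β1, for a log2 ratio of -1.09 (-1.24 to -0.95) or 2.13-fold lower. *HS6ST1* had 13.6 and 12.4 CPM (-0.14, -0.22 to -0.06), with intervals that held 0 in 3 of 4 bands of cell depth. Together these transferases went from 19.2 to 14.96 CPM (-0.36, -0.42 to -0.29). *SULF2* (ENSECAG00000013630) had 5238 UMIs (24.9 CPM) in the control and 11695 UMIs (53.2 CPM) after TGF-β1, for a log2 ratio of 1.10 (1.05 to 1.14). *SULF1* (ENSECAG00000016927) had 11746 UMIs (55.8 CPM) and 22438 UMIs (102 CPM), a log2 ratio of 0.87 (0.84 to 0.90). The endosulfatases together went from 80.7 to 155 CPM (0.95, 0.92 to 0.97). After thinning, UMIs of *SULF1* were found in 49.1% of control cells against 74.0% of treated cells, those of *SULF2* in 35.2% and 59.5%, and those of *HS6ST2* in 8.49% and 4.19%. Before thinning the shares were 70.6% and 89.1% for *SULF1*, 60.5% and 82.1% for *SULF2*, and 18.1% and 8.49% for *HS6ST2*. A further transferase of the family, *HS6ST3*, which is not among the 44 genes, went the other way at 1.28 and 2.76 CPM (1.11, 0.90 to 1.32).

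The other genes of the pathway were read from 4 further lists. Of 15 other glycosaminoglycan and related transferases 12 were found, and 7 reached 1 CPM. Of these, 2 were more than 2-fold higher (3.45% of all genes), *HS6ST3* and *NDST4* (2.99 and 12.7 CPM, log2 ratio 2.09, 1.96 to 2.22), and none was more than 1.5-fold lower, with a median of -0.01. Of 11 genes for the transport and recycling of precursors at 1 CPM or more, 9 were higher and 3 of these passed 1.5-fold (7.64% of all genes), with a median of 0.28. They were the Golgi proteins *SLC39A13* (23.0 and 44.9 CPM, 0.97), a zinc transporter, *SLC10A7* (40.8 and 70.2 CPM, 0.78) and *TMEM165* (323 and 500 CPM, 0.63), the last of them a manganese and calcium transporter. Of 15 genes for glycosaminoglycan breakdown at that level, 6 were higher and 9 lower, with a median of -0.10, and only *SGSH*, the sulfamidase of heparan sulfate, was more than 1.5-fold lower, where 9.36% of all genes were (3.66 and 2.13 CPM, -0.78, -0.95 to -0.61). The synthesis genes and the breakdown genes thus had medians of opposite sign, 0.37 and -0.10, beside -0.01 for all genes. For the listed breakdown genes of at least 10 CPM the sign turned, to 0.052, a value between *ARSB* (-0.0045) and *IDS* (0.11). The list counts *HPSE2* (128 and 161 CPM, 0.32), a relative of heparanase not known to cleave the chains, and this turn of sign rests on it.

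The genes listed as core proteins had a median of 0.06 over 21 genes, with 13 higher and 8 lower. Whether each of them carries chains in these cells was not tested. More than 1.5-fold higher were 4 of them (7.64% of all genes) and more than 1.5-fold lower another 4 (9.36%). Among those higher by more than 1.5-fold, the largest ratios were those of *SPOCK3* (5.31 and 12.6 CPM, 1.25), *SPOCK1* (0.78 and 1.47 CPM, 0.91) and the large chondroitin sulfate proteoglycan *VCAN* (643 and 1188 CPM, 0.89, 0.88 to 0.90). Lowest were *TGFBR3*, the TGF-β co-receptor betaglycan (7.85 and 1.88 CPM, -2.06, -2.22 to -1.91), the adhesion molecule *BCAM* (2.00 and 0.56 CPM, -1.83) and the cell surface heparan sulfate proteoglycan *SDC4* (34.8 and 12.1 CPM, -1.52, -1.59 to -1.46).

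To see whether the differences were shared by the fibroblasts, cells of both libraries were clustered again. This gave 8 clusters, numbered 0 to 7, of 105 to 886 control and 54 to 1216 TGF-β1 cells. Clusters of a library are not replicates, and they were built on the same counts, so the values are a description. Cluster 6 had all 9 cycling markers more than 2-fold higher than the other cells. The 5 genes past 2-fold kept their direction in all 8 clusters. Over all genes, 6.28% were past 2-fold and kept their direction in every cluster, which is 90.9% of the 837 genes past 2-fold, so 5 of 5 is near the background. Of the 39 genes, 20 were higher in all 8 clusters and 4 (*FAM20A*, *FAM20B*, *HS6ST1* and *HS6ST2*) were lower in all 8, counted by sign alone. Over all genes these shares were 18.5% higher and 23.3% lower. For *FAM20B* and *HS6ST1* the interval lay below 0 in only 2 of the clusters. The median log2 ratio of the 39 genes lay between 0.26 and 0.42 over the clusters.

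*EXT1* varied least of these 5, with log2 ratios between 1.02 in cluster 5 and 1.62 in cluster 0, all past 2-fold. *CHST7* was past 2-fold in 5 clusters, with ratios from 0.42 in cluster 7 to 2.46 in cluster 4 and intervals above 0 in 6 of 8, on 10 to 67 control UMIs per cluster. *SULF2* was past 2-fold in 5 clusters, with ratios from 0.34 in cluster 7 to 1.74 in cluster 6. In cluster 7 it had 98.1 CPM already in the control cells, against 14.5 to 35.01 CPM in the other clusters. *SULF1* ranged from 0.59 to 0.99 with every interval above 0, and *CHSY1* from 0.69 to 1.07 likewise. *FAM20A* was more than 2-fold lower in 6 clusters (-1.84 to -0.62) and *HS6ST2* in 5 (-1.63 to -0.49). *HS3ST3A1* ranged from -1.23 to 0.40, with 3 intervals below 0 and none above it.

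**Figure D3:**
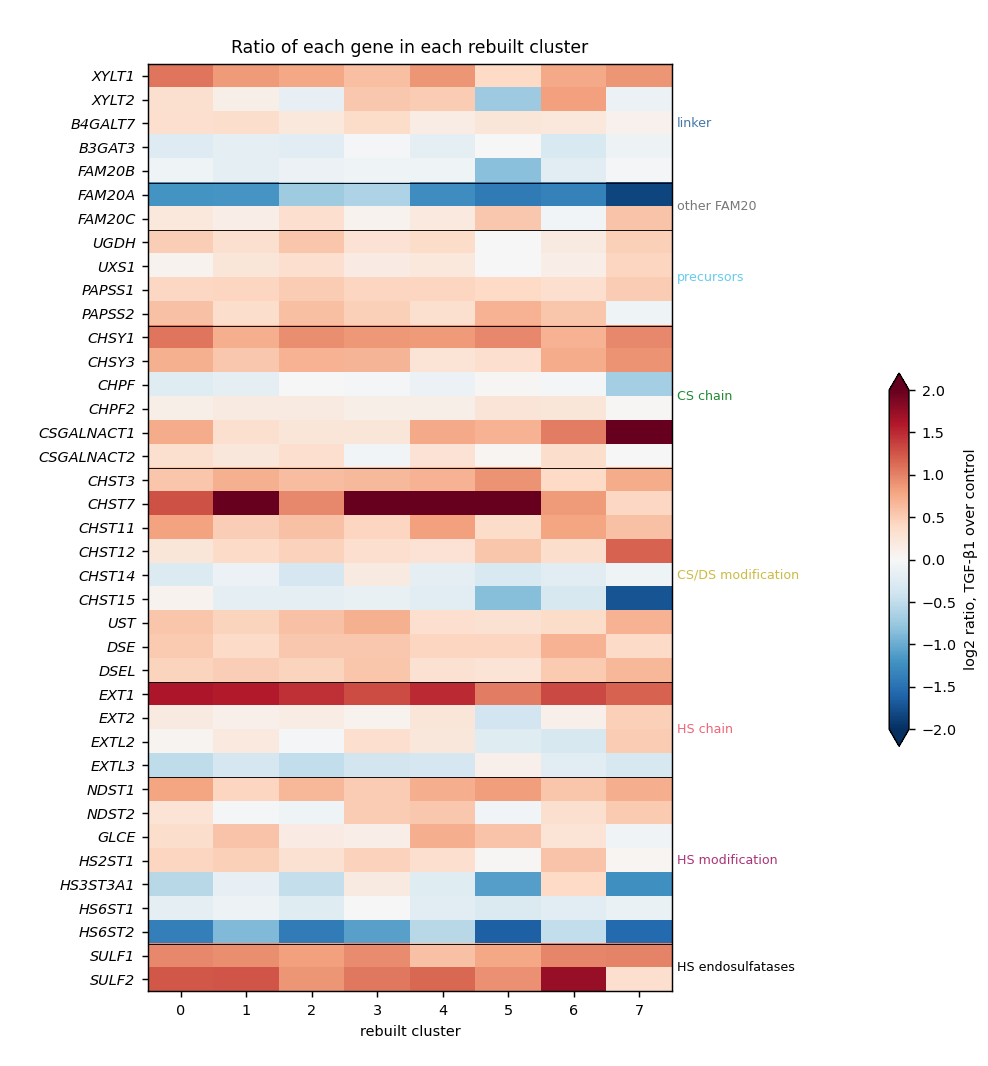
Log2 ratio of TGF-β1 over control for each of the 39 genes (rows) in each rebuilt cluster (columns), red for higher and blue for lower after TGF-β1, with colours ending at -2 and 2. The rows of *EXT1*, *CHST7*, *SULF1* and *SULF2* are red and those of *FAM20A* and *HS6ST2* blue in all 8 clusters, whereas *HS3ST3A1* is blue in 6 clusters and faintly red in 2.

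The level of these genes also differed among fibroblasts of the same library. In the control library, 15 of the 39 genes varied more than 3-fold between clusters, as did 29.2% of all genes. In the TGF-β1 library 16 did, as did 33.5% of all genes. Cluster 5, the cells led by *CFD* and *CRABP2*, held the lowest level of 22 of the 39 genes in the control and of 26 in the TGF-β1 library. Over all genes it held the lowest level of 48.5% and 52.9%, so the 39 genes were not far from the background there. Its cells had a median of 42134 UMIs and 5653 genes in the control library, where the other clusters had 45728 to 68855 UMIs, and a median mitochondrial share of 1.15%. *EXT1* had 60.6 CPM in the control cells of cluster 5 against 134 to 313 CPM in the others, *CHSY3* had 57.3 against 134 to 316 CPM and *UST* had 42.1 against 98.6 to 224 CPM. *XYLT1* had 6.11 against 14.9 to 39.2 CPM. After TGF-β1, *EXT1* in cluster 5 reached 123 CPM, which was below its level in the control cells of every other cluster.

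Not every gene followed this order. *B4GALT7*, *B3GAT3*, *CHST12*, *CHST14*, *EXTL2* and *XYLT2* had their highest control level in cluster 5, and *PAPSS1* was almost level, from 96.7 to 119 CPM over the clusters. *FAM20A* was highest in cluster 4, of which it was among the 10 leading genes, with 14.6 CPM in control and 6.17 CPM in TGF-β1 cells. *HS3ST3A1* was highest in cluster 7, with 16.8 and 7.17 CPM, beside *SULF2*. Between single cells, the variance of thinned UMIs over their mean was 6.40 for *CHSY3*, 3.90 for *UST*, 3.39 for *EXT1* and 2.56 for *SULF1* in the control library, where counting alone gives 1 and the median over all genes was 1.11. In the TGF-β1 library it was 5.88, 3.61, 6.21 and 2.06 for these genes in the same order, and the mean of *EXT1*, on which this measure also depends, was higher there.

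**Figure D4:**
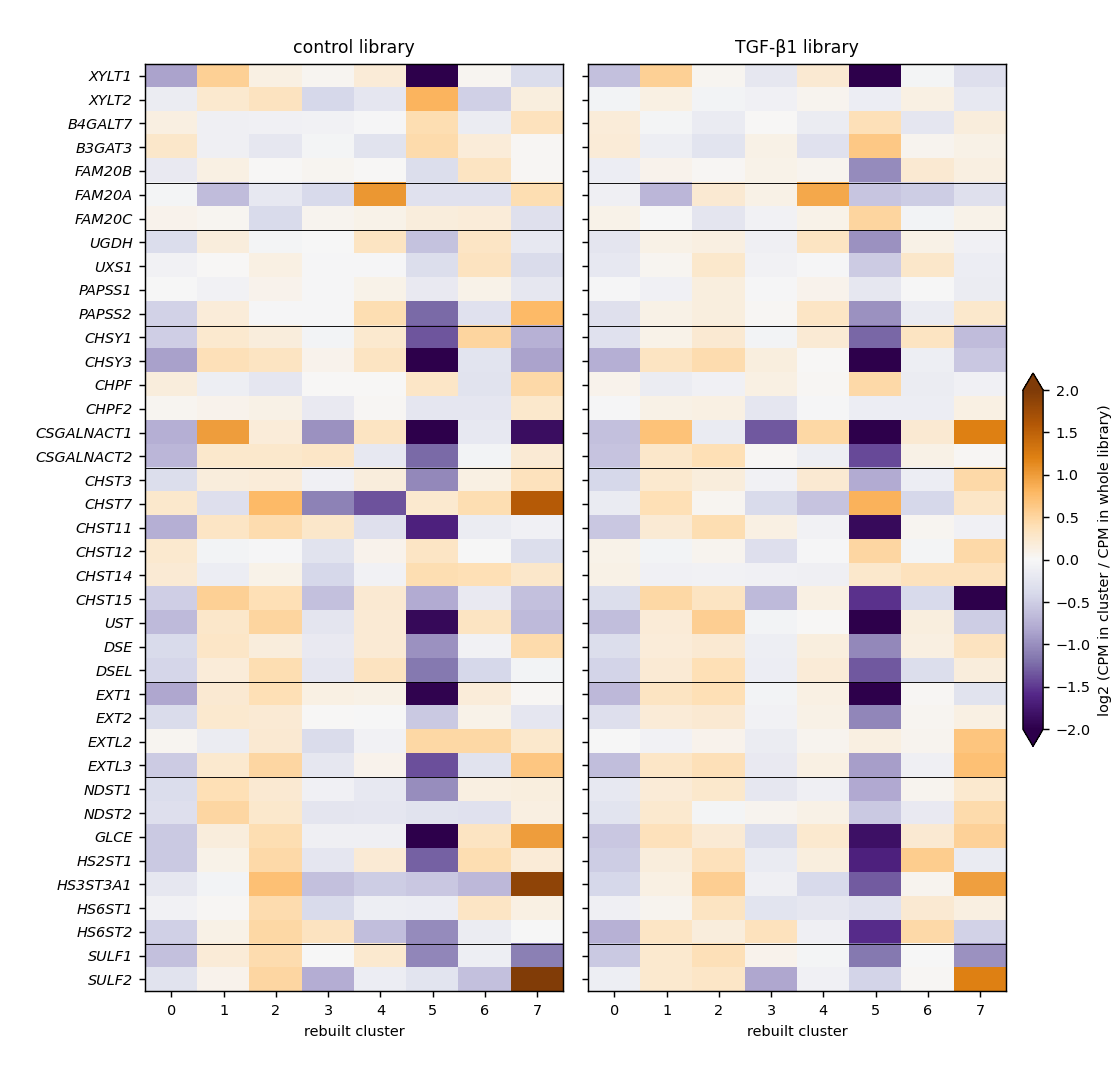
Level of each of the 39 genes in each rebuilt cluster relative to its level in the whole library, as log2 of the CPM ratio, for the control library (left) and the TGF-β1 library (right), orange for above and purple for below the library level. The column of cluster 5 is mostly purple in both panels, with *XYLT1*, *CHSY3*, *UST* and *EXT1* among the deepest, and *SULF2* is orange in cluster 7.

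Cells with 3 or more cycling markers in the thinned counts, 71 in the control and 68 in the TGF-β1 library, were compared with the other cells of their library. *CHSY1* was 1.82-fold and 1.44-fold as high in cycling cells of the control and TGF-β1 library, and *HS2ST1* 1.78-fold and 1.62-fold. These were the highest control ratios of the 39 genes and carry no interval. Control cells of cluster 6, which had the cycling markers, were also the deepest (median 68855 UMIs). *CHSY1* rose from 15.2 CPM in the shallowest to 22.9 CPM in the deepest control cells. The part of depth in these ratios was not tested. Cells of unequal depth were also set apart, since control cells were deeper. In 4 bands that start at 20000, 40000, 60000 and 80000 UMIs per cell, the 39 genes had median log2 ratios of 0.29, 0.44, 0.30 and 0.30. *EXT1* had ratios of 1.47, 1.71, 1.38 and 1.37 in these bands, and *CHST7* 1.197, 1.72, 1.84 and 1.96. *FAM20A*, with -1.49, -1.07, -0.93 and -1.14, and *HS6ST2*, with -1.34, -1.05, -0.84 and -1.02, were within 2-fold in the band from 60000 UMIs. *SULF1* and *SULF2* crossed over, the former at 1.18 in the shallowest and 0.65 in the deepest cells and the latter at 0.78, within 2-fold, and 1.28. *HS3ST3A1* had -1.16, -0.34, 0.09 and 0.19, and the intervals of the last 2 held 0.

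**Figure D5:**
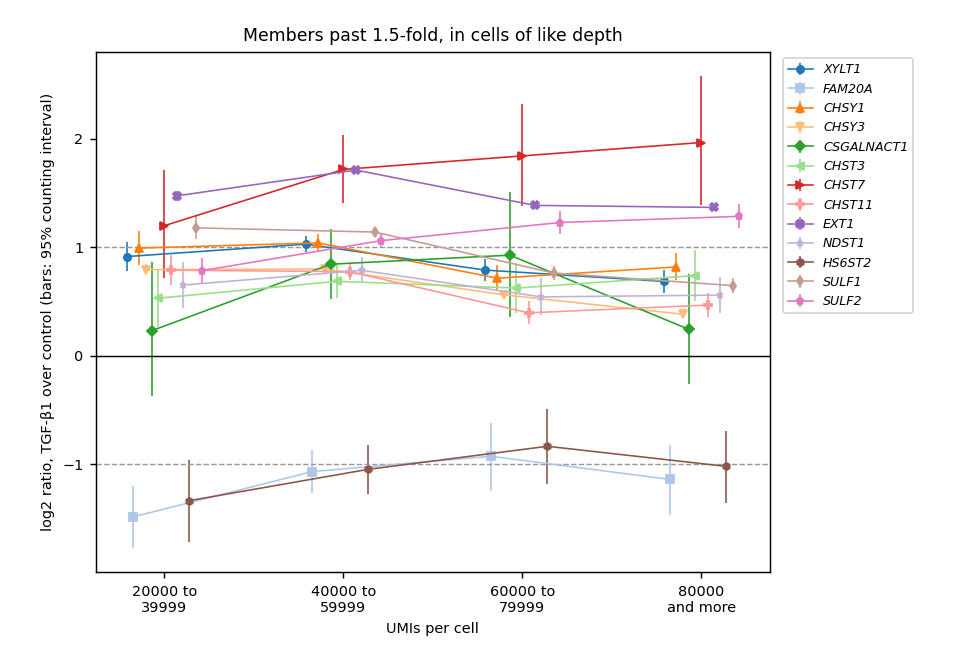
Log2 ratio of TGF-β1 over control for the 13 genes past 1.5-fold, computed within 4 bands of UMIs per cell, with 95% counting intervals as bars and dashed lines at 2-fold. *EXT1* and *CHST7* stay above the upper line in every band, *FAM20A* and *HS6ST2* stay below 0, and *SULF1* declines with depth while *SULF2* climbs.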

How the data were processed

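The authors deposited, for each library, UMI counts per gene and cell barcode. Per the labels these were made with Cell Ranger 7.1.0 against EquCab3.0, while the file headers name 8.0.1. The methods name the Ensembl annotation and do not say whether reads in introns were counted. The study's cell filters, and its separation of mares and removal of doublets by genotype, had not been applied to the counts. The filters were repeated here and the genotype steps were not, and no doublets were removed.

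The UMIs of all kept cells in a library were added up and expressed as CPM (Python 3.11.15, pandas 2.3.3, scipy 1.17.1, numpy 2.4.6). Ratios carry no pseudocount, and none was formed where neither library had more than 3 UMIs. Intervals are Clopper-Pearson for ratios and shares, and Poisson for levels. Clusters were rebuilt in Seurat 5.3.0 in R 4.3.3 (2000 variable genes, 30 dimensions, canonical correlation integration, resolution 0.5), and clusters with at least 50 cells of each library were used. Figures were drawn in matplotlib 3.10.9. The ratios were tested on simulated data.

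The genes and lists were chosen with earlier results of these data known. Every one of the 44 genes is accounted for, those past 2-fold and 1.5-fold in most detail, and of the other lists the 3 largest rises and falls past 1.5-fold that averaged 1 CPM or more are named. No genomic positions or sequences were used. Cells given MFGE8 were not used here.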

Additional observations from a re-analysis of the deposited data

How the results depend on the processing

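The counts and medians were recomputed with other cell filters, without the cells of highest UMI count or the cycling cells, with other scalings and with equal cluster shares. Counts within 1.5 times the main count were called unmoved. So were medians within the counting interval of the middle gene, averaged over the middle genes for lists of even length. By this rule 146 of 161 recomputed values stayed. The interval narrows with the UMIs of the middle gene, so the rule was not equally strict for every list. Restricting both libraries to cells of 40000 to 60000 UMIs, where the median over all genes was 0.044, raised the number of genes more than 2-fold higher from 3 to 6, adding *XYLT1*, *CHSY1* and *SULF1*. It moved the medians of the precursor enzymes to 0.46, the chondroitin sulfate polymerases to 0.63, the chondroitin and dermatan sulfate modifying enzymes to 0.58, the heparan sulfate polymerases to 0.21, the transport and recycling genes to 0.40 and the breakdown genes to -0.17. A minimum of 10 CPM left 0 genes more than 2-fold lower, since *FAM20A* and *HS6ST2* are below it, and moved the medians of the linker enzymes to 0.074, the chondroitin sulfate polymerases to 0.21, the heparan sulfate polymerases to 0.81, the heparan sulfate modifying enzymes to 0.40 and the other transferases to -0.29. It reversed that of the breakdown genes to 0.052, from fewer genes with *HPSE2* counted among them. A limit of 1.5-fold gave 11 genes higher, of which *CHSY3*, *CHST11*, *CSGALNACT1*, *NDST1* and *CHST3* were within it in some depth bands. The 5 genes past 2-fold stayed past it under the 10 alternatives of cell choice and scaling, but within single depth bands *FAM20A* (-0.93), *HS6ST2* (-0.84) and *SULF2* (0.78) did not. Without integration only 1 cluster had enough cells of both libraries. No paired analysis was possible because the count files do not tie cells to mares and the genotype step that does so was not repeated here. Genes near 1 CPM are limited by depth.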
